A study of Mus musculus with 4 samples.

Results

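The interferon regulatory factors are transcription factors that bind DNA through a shared amino-terminal domain. The 8 members described here, Irf1, Irf2, Irf3, Irf4, Irf5, Irf7, Irf8 and Irf9, were chosen by symbol from the 43432 genes of the count table. Their messages were counted in 4 tumours grown under the skin of female C57BL/6 mice from 9464D-GD2, a mouse neuroblastoma line that displays GD2. The dinutuximab group (2 tumours) received 25 µg of dinutuximab, an antibody to GD2, in each of 5 treatments given 2 times per week. The sEV group (2 tumours) received the same antibody together with 20 µg of small extracellular vesicles (sEVs) from 9464D-GD2 cells on the same schedule. All 4 tumours therefore carried the same line and were exposed to the antibody, and no untreated tumour was analysed here. Tumours are called replicate 3 and replicate 4 after their titles, and these numbers are names only. The age of the mice is not stated.

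Members of the family carry the detection of nucleic acid to the interferon genes, act in the response to interferon or direct the development of immune cells. Irf3 and Irf7 are activated by the kinases downstream of the nucleic acid sensors and switch on type I interferon genes. Irf9 joins Stat2 in ISGF3, the complex that type I interferon activates at the interferon-stimulated response element (ISRE). Irf1 is induced by interferon gamma, Irf2 competes with it at shared sites, Irf5 acts below Toll-like receptors in myeloid cells, and Irf8 and Irf4 direct the development of myeloid and lymphoid cells. In a tumour these messages can come from the cancer cells and from the immune cells among them.

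The promoters of the 2 inducible members and of the 2 macrophage-linked members are shown because these pairs are set against each other in the results. All 8 members had a promoter in the RefSeq table of build GRCm38.p6, with 11 entries in all, each running from 250 bases before to 50 bases after an annotated start. Printed are the bases before the first annotated start of each gene that lie in no GENCODE exon, 5′ to 3′ on the strand of the gene, with motif matches in capitals. They are chr11:53769764-53770013 on the plus strand (Irf1), chr7:141266482-141266674 on the minus strand (Irf7), chr6:29526375-29526624 on the plus strand (Irf5) and chr8:120736108-120736357 on the plus strand (Irf8).
Irf1: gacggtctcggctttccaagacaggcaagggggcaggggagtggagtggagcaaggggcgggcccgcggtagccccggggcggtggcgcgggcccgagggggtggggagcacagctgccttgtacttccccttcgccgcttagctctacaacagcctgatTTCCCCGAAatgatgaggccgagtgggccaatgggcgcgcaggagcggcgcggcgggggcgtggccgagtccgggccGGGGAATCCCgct
Irf7: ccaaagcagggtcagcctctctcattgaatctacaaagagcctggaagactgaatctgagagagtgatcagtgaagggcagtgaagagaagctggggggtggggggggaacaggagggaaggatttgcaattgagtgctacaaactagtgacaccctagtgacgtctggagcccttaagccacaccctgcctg
Irf5: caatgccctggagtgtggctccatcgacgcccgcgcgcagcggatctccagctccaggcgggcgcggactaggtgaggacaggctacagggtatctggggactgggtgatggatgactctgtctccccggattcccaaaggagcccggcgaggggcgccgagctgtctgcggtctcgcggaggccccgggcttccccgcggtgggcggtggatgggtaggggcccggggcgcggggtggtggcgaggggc
Irf8: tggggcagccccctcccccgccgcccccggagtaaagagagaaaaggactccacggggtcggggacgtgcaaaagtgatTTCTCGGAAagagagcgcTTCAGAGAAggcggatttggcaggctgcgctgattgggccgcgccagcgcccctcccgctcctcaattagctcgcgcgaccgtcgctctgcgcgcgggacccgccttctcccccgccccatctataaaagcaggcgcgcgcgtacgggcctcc
In Irf1 the capitals mark a gamma-activated sequence (GAS, searched as TTCNNNGAA), the kind of site that answers to interferon gamma, from base -90 to -82 before the start, and an NF-kB motif from base -13 to -4. In Irf8 they mark a pair of GAS matches, at -171 to -163 and -153 to -145. The printed stretches of Irf5 and Irf7 held none of the motifs searched. Both strands were searched. A GAS match was held by 8.30% of the 32851 promoters in the table and by 3 of the 8 members, Irf2 being the third, and an NF-kB match by 8.46% of promoters and by 2 members, Irf1 and Irf2. The ISRE core (GAAANNGAAA) was held by 3.44% of promoters and by 1 member, Irf2, where the match ran into an annotated exon and overlapped the 1 member match to the composite site of ETS factors and IRFs (GGAANNGAAA, 2.72% of promoters). The core of PU.1 sites (GAGGAA) was held by 28.3% of promoters and by 3 members, Irf2, Irf4 and Irf9. A match describes the letters of the window and is no evidence of binding.

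No Irf gene passed the test for a difference between the groups, edgeR's quasi-likelihood F test adjusted by Benjamini and Hochberg's method. The adjusted p of the 8 members ranged from 0.909 to 0.981, and none had an unadjusted p under 0.05. All 8 passed the filter on low counts. Over the 13823 genes tested the same test called 0% higher and 0% lower, with 770 genes (5.57%) at an unadjusted p under 0.05. limma-voom also called 0 genes, DESeq2 called 17 higher and 38 lower, and neither called a member, though DESeq2 gave Irf4 no adjusted p. Of the members, 6 had positive and 2 negative log2 fold changes, with a median of 0.10, against a median of 0.00 over all genes tested, where 6953 were positive and 6870 negative. In 2 members, Irf5 and Irf9, both sEV tumours lay above both dinutuximab tumours, an order found in 18.1% of all genes tested (34.6% did not overlap in either direction). Both tumours of a group are biological replicates according to the series' design text. With 2 of them per group, a 2-sided exact permutation test of 1 gene cannot give a p below 0.333.

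Levels were compared between genes as CPM (the count scaled to the adjusted library size) per kb of merged exon. Irf1 was the highest member, at 23.0 and 20.0 CPM per kb in the dinutuximab tumours and 22.2 and 22.5 in the sEV tumours (replicates 3 and 4 in this and every later list of 4). Irf3 followed with a mean of 13.2 CPM per kb over the 4 tumours, then Irf5 with 8.56 and Irf2 with 6.18, and each of these neighbours kept its place in 4 of 4 tumours. Irf9 (mean 2.82 CPM per kb), Irf8 (2.57) and Irf7 (2.36) overlapped. Irf4 was lowest, at 0.147 CPM per kb, with 12, 22, 14 and 28 counts. Irf1 therefore stood at the top and Irf4 at the bottom in every tumour, and the order of Irf7, Irf8 and Irf9 differed between tumours. With the longest coding transcript as the length in place of the merged exons, which include retained introns, Irf2 (18.3 CPM per kb) stood above Irf5 (11.1), and the lower places went to Irf8 (6.38), Irf9 (5.14), Irf7 (3.98) and Irf4 (0.151).

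**Figure D1:**
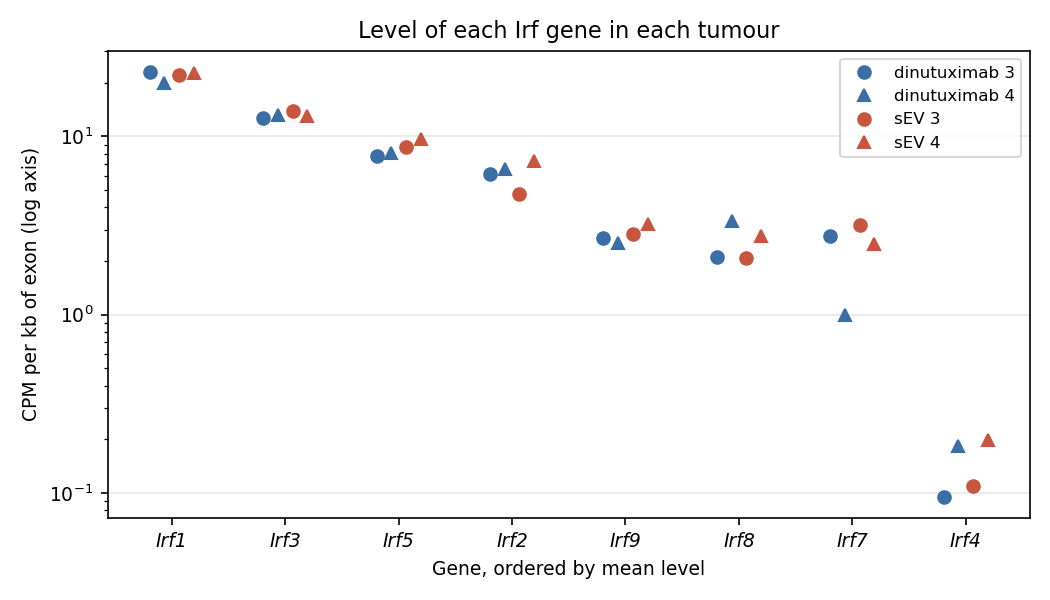
Level of each member in each tumour, in CPM per kb of merged exon on a log axis, with genes ordered by mean level; blue points are dinutuximab and red points sEV tumours, circles replicate 3 and triangles replicate 4. Irf7 in dinutuximab replicate 4 (0.998 CPM per kb) lies below the other 3 tumours (2.48 to 3.20).

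Of the inducible members, Irf7 varied most between tumours. Irf7, whose own transcription is raised by interferon signalling, had 10.4 and 3.77 CPM in the dinutuximab tumours and 12.1 and 9.36 CPM in the sEV tumours. Dinutuximab replicate 4 was low (92 counts, against 268, 316 and 270), the other 3 tumours were close together, and the groups overlapped. Group means were 7.11 ± 4.72 and 10.7 ± 1.92 CPM (SD, n = 2). The log2 fold change was 0.59 ± 0.41 (SE), with a 95% interval from 0.791-fold to 2.86-fold (edgeR quasi-likelihood test, adjusted p = 0.909). The 2 dinutuximab tumours differed 2.77-fold, and 1.56% of all genes tested had a larger gap between these libraries. Without dinutuximab replicate 4 the log2 fold change of Irf7 was 0.04, and without dinutuximab replicate 3 it was 1.51 (unadjusted p of 0.0021, edgeR adjusted p = 0.854). Irf1, a tumour suppressor and activator of antigen presentation genes, was steady at 91.4 and 79.6 CPM with dinutuximab and 88.4 and 89.6 CPM with added sEVs. The sEV tumours lay between the dinutuximab tumours. The log2 fold change of Irf1 was 0.06 ± 0.13 (SE), with a 95% interval from 0.844-fold to 1.28-fold, and it was -0.04 without dinutuximab replicate 4.

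Of the macrophage-linked members, Irf5 had separate groups without passing the test, and Irf8 varied within both groups. Irf5 drives inflammatory cytokine genes in macrophages. Its overlap with Tnpo3 on the opposite strand may have raised or lowered its count. Irf5 had 22.5 and 23.5 CPM with dinutuximab and 25.5 and 28.1 CPM with added sEVs. The groups did not overlap, with sEV higher, as in 18.1% of all genes tested. Means were 23.0 ± 0.689 and 26.8 ± 1.84 CPM (SD, n = 2). The log2 fold change was 0.22 ± 0.15 (SE), with a 95% interval from 0.920-fold to 1.48-fold (edgeR adjusted p = 0.909), and it lay between 0.15 and 0.28 when 1 library was left out. Irf8, a factor that monocytes and dendritic cells need to develop, had 14.8 and 23.6 CPM with dinutuximab and 14.7 and 19.5 CPM with added sEVs. In each group replicate 4 was the higher tumour, and the groups overlapped. The dinutuximab tumours differed 1.60-fold and the sEV tumours 1.32-fold, where the median gene tested differed 1.16-fold and 1.14-fold. The log2 fold change of Irf8 was -0.16 ± 0.25 (SE), with a 95% interval from 0.606-fold to 1.32-fold, and its sign turned without dinutuximab replicate 4 (0.21) and without sEV replicate 3 (0.02). In bulk tissue, fewer cells of a type and less RNA per cell cannot be told apart.

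The other 4 members did not pass the test either. Of these Irf9 alone had groups that did not overlap (sEV higher, as in 18.1% of all genes tested). Irf9, the DNA-binding subunit of ISGF3, had 14.5 and 13.7 CPM with dinutuximab and 15.4 and 17.4 CPM with added sEVs. Its log2 fold change was 0.22 ± 0.17 (SE), with a 95% interval from 0.888-fold to 1.52-fold (edgeR adjusted p = 0.909), and it was 0.13 without sEV replicate 4. Irf3, the constitutive partner of Irf7, had 43.7 and 45.7 CPM with dinutuximab and 48.0 and 44.5 CPM with added sEVs. Its 95% interval ran from 0.837-fold to 1.28-fold around a log2 fold change of 0.05, which was -0.01 without sEV replicate 3. Irf2, mainly a repressor, had 45.4 and 48.3 CPM with dinutuximab and 35.0 and 54.1 CPM with added sEVs, with the sEV tumours on either side of the dinutuximab tumours. Its log2 fold change was -0.07 (95% interval from 0.691-fold to 1.31-fold), and 0.20 without sEV replicate 3. Irf4, a factor of lymphocytes and of some dendritic cells and macrophages, had 0.468 and 0.901 CPM with dinutuximab and 0.535 and 0.970 CPM with added sEVs. As with Irf8, replicate 4 was the higher tumour in both groups. The 95% interval of Irf4 ran from 0.491-fold to 2.50-fold around a log2 fold change of 0.15, which was -0.25 without dinutuximab replicate 3 and -0.35 without sEV replicate 4.

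**Figure D2:**
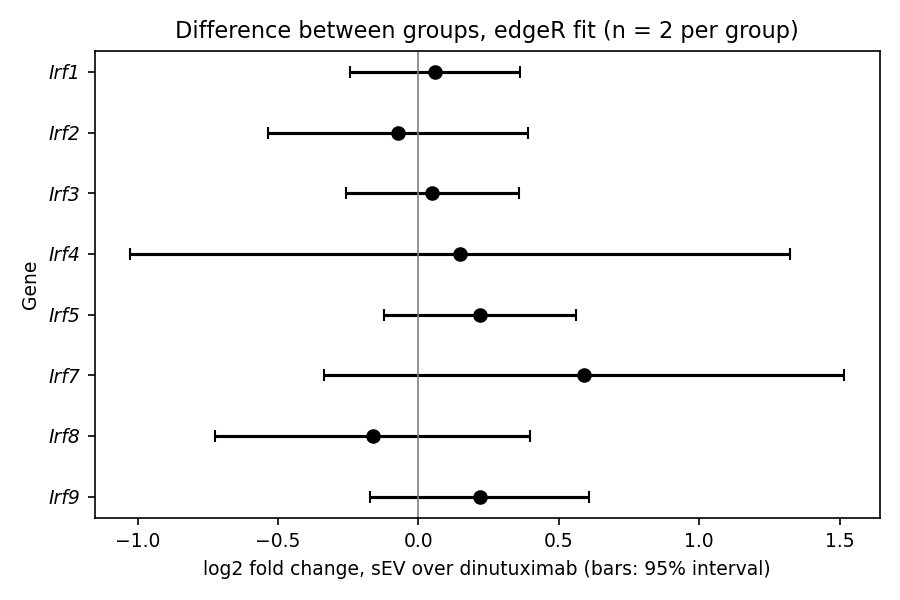
Log2 fold change of each member, sEV over dinutuximab, from the edgeR fit over all genes (points) with its 95% interval (bars), 2 tumours per group. All 8 intervals include 0, and the bars are longest for Irf4 (-1.03 to 1.32) and Irf7 (-0.34 to 1.52).

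The balance of macrophage-linked to inducible members differed more within the dinutuximab group than between the groups. The mean log2 CPM per kb of Irf5 and Irf8 minus that of Irf1 and Irf7 was -0.99 and 0.22 in the dinutuximab tumours and -0.98 and -0.53 in the sEV tumours. Dinutuximab replicate 4, with the highest Irf8 and the lowest Irf7, was the only tumour of the 4 with a positive value, and the groups overlapped. Group means were -0.38 ± 0.85 and -0.75 ± 0.32 (SD, n = 2), a difference of -0.37 (sEV minus dinutuximab). Without dinutuximab replicate 4 the difference was 0.23, and it was -0.97 without dinutuximab replicate 3. When the CPM per kb of each pair were summed before the logarithm, so that Irf1 outweighed Irf7, the difference was 0.02. No test was made, since the score is built from chosen members.

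The ratios of single members showed where that variation lay. Irf8 per Irf7, both in CPM per kb of merged exon, was 0.757 and 3.36 with dinutuximab and 0.654 and 1.12 with added sEVs, higher in replicate 4 of each group. With the longest coding transcript as the length, added after the data were seen, Irf8 per Irf7 was 1.11 and 4.93 with dinutuximab and 0.960 and 1.64 with added sEVs, so that which of the pair was higher in dinutuximab replicate 3 depended on the length used. Irf5 per Irf1 kept within a narrow range, at 0.337 and 0.403 with dinutuximab and 0.395 and 0.429 with added sEVs. Irf1 per Irf7 was 8.31 and 20.1 with dinutuximab and 6.95 and 9.10 with added sEVs, so the inducible pair itself came apart in dinutuximab replicate 4. Irf8 per Irf5 was 0.270 and 0.415 with dinutuximab and 0.238 and 0.286 with added sEVs.

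**Figure D3:**
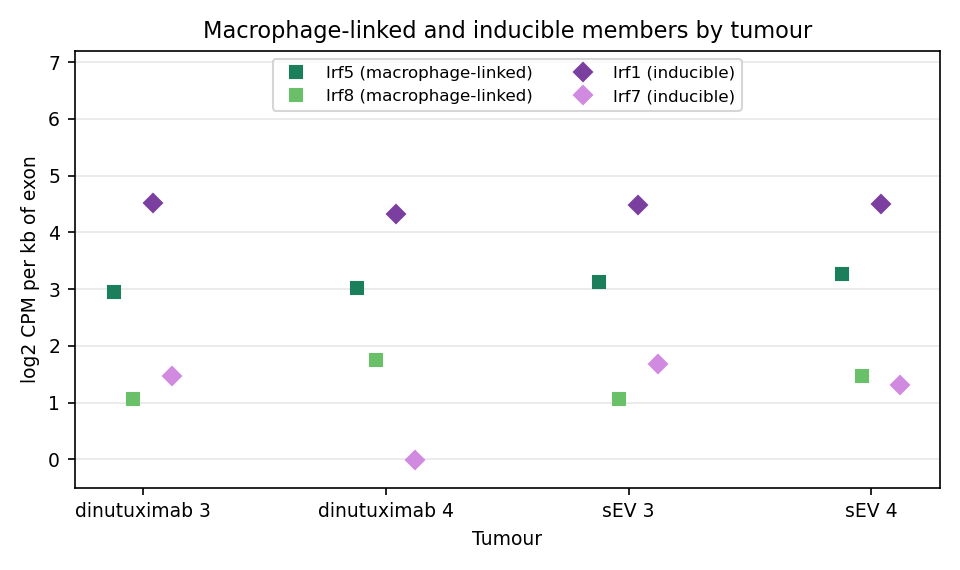
Log2 CPM per kb of merged exon of the macrophage-linked members (green squares, Irf5 and Irf8) and the inducible members (purple diamonds, Irf1 and Irf7) in each tumour. Irf8 lies below Irf7 in both tumours numbered 3 and above it in both numbered 4, with the widest gap in dinutuximab replicate 4 (Irf8 per Irf7 of 3.36); in dinutuximab replicate 3 this order turned with the longest coding transcript as the length (1.11).

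Upstream of the factors, no sensor, adaptor or kinase passed the test. Of 24 genes of nucleic acid and Toll-like receptor sensing, all tested, 0 were called higher and 0 lower, 16 had positive values and the median log2 fold change was 0.12 (all genes tested, 0.00). The kinase gene Tbk1, whose product phosphorylates Irf3, had 38.4 and 35.2 CPM with dinutuximab and 46.0 and 34.9 CPM with added sEVs. Those of lowest unadjusted p were Irak1, a kinase below Myd88 (log2 fold change 0.27 ± 0.14, SE), Tlr9, the sensor of unmethylated DNA (-0.995 ± 0.54), and the adaptor gene Traf3 (-0.33 ± 0.19). The interferon genes themselves were barely detected, and none of the 10 listed passed the low-count filter. Ifnb1 had 6, 0, 0 and 5 counts and Ifng 5, 3, 4 and 10, Ifne had at most 1 in a library, and the other 7 were at 0 in all 4 libraries.

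Between the interferons and the factors, 16 of 17 receptor and JAK-STAT genes passed the low-count filter, and Ifnlr1, of the lambda interferon receptor, was at 0 counts in all 4 libraries. Of the 16 tested, 8 had positive and 8 negative values, 0 were called, and the median log2 fold change was 0.00. Ifnar1, of the type I receptor, had 76.5 and 81.4 CPM with dinutuximab and 77.2 and 79.2 CPM with added sEVs. Its partner Ifnar2 had a log2 fold change of 0.11 ± 0.14 (SE). The chains of the interferon gamma receptor had 0.20 ± 0.14 (Ifngr1) and -0.01 ± 0.15 (Ifngr2). Stat2, the partner of Irf9, had 11.9 and 11.3 CPM with dinutuximab and 14.9 and 14.1 CPM with added sEVs, with no overlap (log2 fold change 0.32 ± 0.17, SE; edgeR adjusted p = 0.888). Socs3, an inhibitor of cytokine signalling, had -0.18 ± 0.13.

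Cofactors of the family had mostly negative values, with 9 of 13 tested members negative, a median log2 fold change of -0.18 and 0 called. Irf2bp2, which encodes a corepressor that binds Irf2, had 177 and 165 CPM with dinutuximab and 115 and 139 CPM with added sEVs. The groups did not overlap, at a log2 fold change of -0.43 ± 0.14 (SE; unadjusted p of 0.0152, edgeR adjusted p = 0.738). Its relative Irf2bp1 had -0.29 ± 0.15. Spi1 encodes PU.1, the ETS factor that recruits Irf8 and Irf4 to composite sites. It had 31.3 and 36.0 CPM with dinutuximab and 43.8 and 40.3 CPM with added sEVs, at 0.32 ± 0.15. Batf3, a partner of Irf8 in dendritic cells, had between 1.60 and 2.01 CPM.

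Among genes that ISGF3 and Irf7 act on through the ISRE, dinutuximab replicate 4 was again the low tumour. Of 25 tested targets 20 had their lowest value in that tumour, where 26.5% of all genes tested did. Isg15, a ubiquitin-like modifier, had 11.03 and 3.11 CPM with dinutuximab and 6.11 and 8.80 CPM with added sEVs. Rsad2, the antiviral enzyme viperin, had 7.76 and 2.33 CPM with dinutuximab and 4.32 and 6.76 CPM with added sEVs. Ifit1, a sensor of foreign RNA ends named after its values were seen, had 5.57 and 1.19 CPM with dinutuximab and 2.18 and 6.27 CPM with added sEVs. For these 3 the groups overlapped, and sEV replicate 3, which had the highest Irf7, held the second-lowest value. As a list, 21 of the 25 had positive log2 fold changes with a median of 0.20, 3 had an unadjusted p under 0.05 (5.57% of all genes tested) and 0 were called. Mx1, an antiviral GTPase, had 6.00 and 5.73 CPM with dinutuximab and 11.5 and 9.91 CPM with added sEVs (log2 fold change 0.86 ± 0.21, SE; edgeR adjusted p = 0.535). Trim30a (0.57 ± 0.17), a regulator of inflammatory signalling, and the chemokine gene Ccl5 (1.10 ± 0.42) were the next by p. In all 3, named for their low p, both sEV tumours lay above both dinutuximab tumours. That order was found in 4 of the 25 targets and in 18.1% of all genes tested.

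**Figure D4:**
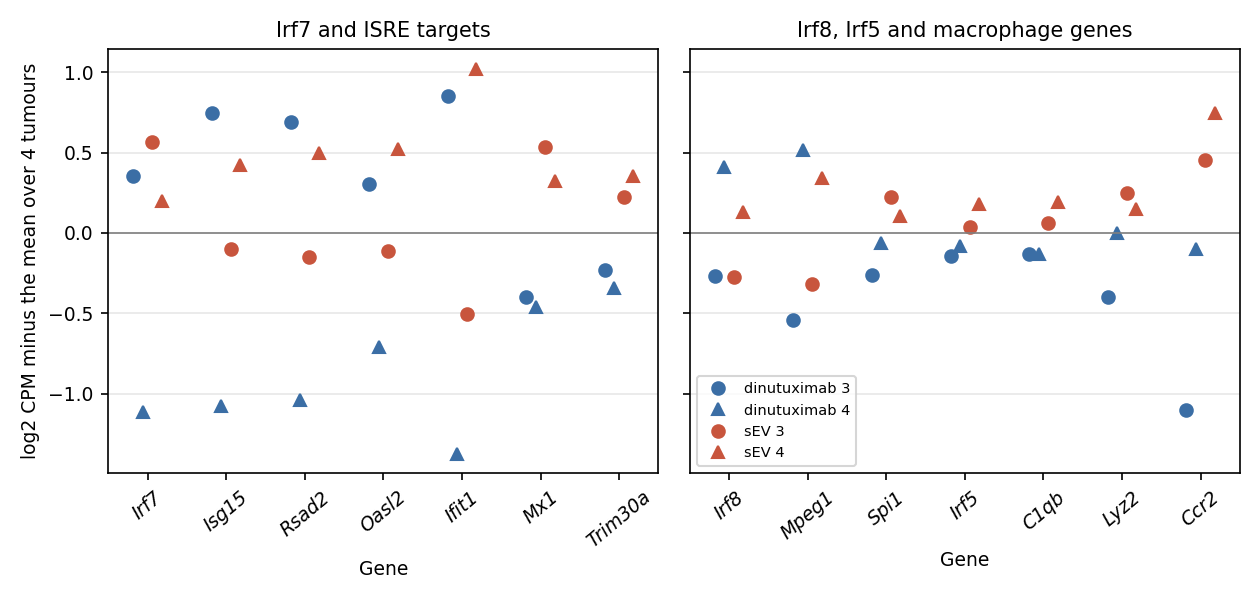
Log2 CPM of each gene minus its mean over the 4 tumours, with Irf7 and targets of the ISRE on the left and Irf8, Irf5 and macrophage genes on the right; symbols as in the plot of levels. Irf7, Isg15, Rsad2, Oasl2, Ifit1, Mx1 and Trim30a are all lowest in dinutuximab replicate 4. Mx1 and Trim30a are also higher in both sEV tumours than in both dinutuximab tumours.

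Targets of Irf1 and interferon gamma had another distribution over the tumours. Of 20 tested, 14 were highest in sEV replicate 4 (19.2% of all genes tested) and 11 lowest in sEV replicate 3 (28.6% of all), while Irf1 itself differed 1.01-fold between these tumours. Cxcl9, a chemokine that attracts T cells, had 10.2 and 12.2 CPM with dinutuximab and 5.00 and 45.2 CPM with added sEVs. B2m, the light chain of MHC class I, had 637 and 670 CPM with dinutuximab and 668 and 928 CPM with added sEVs. The list had 12 positive and 8 negative values, a median log2 fold change of 0.19 and 0 called. The cytokine gene Il15 had the lowest unadjusted p in it, 0.0864, at 0.65 ± 0.34 (SE). Ciita, the switch of MHC class II genes, was named after its values were seen. It had 0.741 and 3.48 CPM with dinutuximab and 0.573 and 3.50 CPM with added sEVs, higher in replicate 4 of each group, as were Irf8 and Irf4.

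Macrophage genes that Irf8 and PU.1 act on had mostly positive values. Of 14 tested, 13 had positive log2 fold changes with a median of 0.23, while Irf8 itself had -0.16. In 8 of the 14 both sEV tumours lay above both dinutuximab tumours (18.1% of all genes tested), 3 had an unadjusted p under 0.05 (5.57% of all) and 0 were called. Fcgr1, the high-affinity Fc receptor gene, had 28.6 and 28.1 CPM with dinutuximab and 42.3 and 36.4 CPM with added sEVs (0.47 ± 0.15, SE; edgeR adjusted p = 0.720). Naip2, of the inflammasome, had 0.79 ± 0.28, and the Toll-like receptor homologue Cd180 0.44 ± 0.18. Mpeg1, which encodes a pore-forming protein of macrophages and was named after its values were seen, had 45.3 and 94.4 CPM with dinutuximab and 52.8 and 83.5 CPM with added sEVs, higher in replicate 4 of each group like Irf8. Cybb and C3 had the same order. Fcgr1, Il18, Lgals3bp and Irak3 were lower in replicate 4 of each group, and the other tested genes of the list followed neither order.

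Marker lists of the cells that express these factors were read in the same tumours. The 18 macrophage and monocyte genes, all detected, summed to 2724 and 3146 CPM with dinutuximab and 3444 and 3525 CPM with added sEVs, so the groups did not overlap. Of the 18, 15 had positive log2 fold changes with a median of 0.21 and 0 were called. Those of lowest p were Ccr2, the receptor of recruited monocytes (1.12 ± 0.31, SE), Lyz2, lysozyme (0.39 ± 0.15), and the complement gene C1qb (0.26 ± 0.12). Per 1000 CPM of this summed list, Irf5 had 8.26 and 7.46 CPM with dinutuximab and 7.40 and 7.97 with added sEVs, so that the groups overlapped on this scale. Irf8 had 5.42 and 7.51 with dinutuximab and 4.28 and 5.54 with added sEVs on the same scale. The part of macrophage content in the level of Irf5 was not tested further. For lymphoid and dendritic cells most of the listed markers were scarce. The 12 B and plasma cell genes summed to 17.4 and 16.7 CPM with dinutuximab and 9.32 and 26.8 CPM with added sEVs, with none at 0 in all libraries. The 16 T and NK cell genes summed to 9.86 and 12.4 CPM with dinutuximab and 8.56 and 17.4 CPM with added sEVs. Of the 8 tested, 5 were highest in sEV replicate 4 (19.2% of all genes tested) and 5 lowest in sEV replicate 3 (28.6% of all). The 12 dendritic cell genes summed to between 66.5 and 90.8 CPM with dinutuximab and between 51.1 and 56.4 CPM with added sEVs. Most of that sum was Fscn1, which other cells also express. Clec9a had 1, 7, 1 and 9 counts and Xcr1 2, 8, 6 and 13, higher in replicate 4 of each group. Itgax (72, 202, 114 and 164 counts) and Zbtb46 (56, 129, 59 and 79) were better counted and had the same order. So did Ccr7 (8, 13, 12 and 16) and Klk1 (0, 1, 0 and 2). Cd209a, with 10, 3, 14 and 2 counts, was lower in replicate 4 of each group. Flt3 (6, 5, 1 and 11), Dpp4 (7, 5, 4 and 9), Cd24a (16, 23, 55 and 51) and Fscn1 followed neither order, and Siglech was at 0. The part of these cells in the levels of Irf4 and Irf8 was not tested.

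The 4 libraries held between 24452699 and 28187573 counts, with between 18818 and 19164 genes detected, and their totals overlapped between the groups. The share of all counts on mitochondrially encoded genes overlapped too, at 0.936% and 1.02% with dinutuximab and 0.891% and 0.940% with added sEVs. Some other readings of the libraries moved with the group. Their sums are in CPM on the adjusted library sizes, whereas the share above is of unadjusted totals. The adjustment raised CPM in dinutuximab replicate 3 (TMM factor 0.976) and lowered it in sEV replicate 4 (1.02). It is on this adjusted scale that the mitochondrial list separated the groups. A list of 9 mitochondrially encoded genes, 7 of them with negative log2 fold changes, summed to 9595 and 10183 CPM with dinutuximab and 8903 and 9176 CPM with added sEVs, and among them mt-Rnr1, a ribosomal RNA gene named after its value was seen, had a log2 fold change of -0.52 ± 0.13 (SE; unadjusted p of 0.0031, edgeR adjusted p = 0.535). Genes of the immediate early and heat shock responses, which tissue handling can set off, had negative values in 13 of 14 members, with a median log2 fold change of -0.39 and summed CPM of 643 to 705 with dinutuximab and 554 to 556 with added sEVs. Endothelial genes were negative in 9 of 10 (summed CPM 171 to 193, and 139 to 149 with added sEVs) and fibroblast genes in 7 of 10, though their summed CPM was higher with sEVs (649 to 653, and 753 to 905 with added sEVs). Their part in the values of Irf5 and Irf9, the members whose groups did not overlap, was not tested. Of 12 neuroblastoma markers, Hand2, Gata2, Isl1 and Mycn were detected in every tumour (Hand2 at 3532 to 4956 counts), whereas Dbh was at 0 and Th had at most 3 counts.

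The genes whose levels followed a member most closely over the 4 tumours were found among 141 listed genes with a mean of at least 5 CPM, by the root mean square distance of log2 CPM centred on each gene's mean. For Irf5 these were C1qb (distance 0.030), C1qa (0.033) and Isl1 (0.053), where Irf5 itself varied by 0.122 about its mean. For Irf8 they included Crebbp (0.117) and Ep300 (0.140), against 0.288 for Irf8. For Irf1 they were Jak1 (0.028), Myd88 (0.055) and Psmb10 (0.058), against 0.077. For Irf7 the nearest were Isg15 (0.404), Rsad2 (0.425) and Oasl2 (0.427), against 0.657. Among these 141 genes, the nearest profiles thus lay farther from Irf7 than from the other 3 members. Listed genes under 5 CPM were not searched. Xaf1, an ISRE target left out by this cut-off, was low in dinutuximab replicate 4 like Irf7. It had 5.22 and 2.25 CPM with dinutuximab and 5.08 and 4.96 CPM with added sEVs. With 4 tumours, near matches arise among many genes, and the distances are a description.

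All 8 members are protein-coding genes, placed here on GRCm38 by GENCODE. Irf1 (ENSMUSG00000018899) lies at 53770014 to 53778374 of chromosome 11, plus strand. Irf2 (ENSMUSG00000031627, 46739732 to 46847458) and Irf8 (ENSMUSG00000041515, 120736358 to 120756694) lie on the plus strand of chromosome 8. Irf3 (ENSMUSG00000003184, 44997648 to 45002848, plus strand) and Irf7 (ENSMUSG00000025498, 141262706 to 141266481, minus strand) lie on chromosome 7. Irf5 (ENSMUSG00000029771) lies at 29526625 to 29541871 of chromosome 6, Irf4 (ENSMUSG00000021356) at 30749226 to 30766976 of chromosome 13, and Irf9 (ENSMUSG00000002325) at 55603571 to 55610030 of chromosome 14, all on the plus strand. Whether the counting used strand is not stated, which matters most for Irf5, where 14.2% of the exon bases are shared with Tnpo3 on the opposite strand. Tnpo3 had between 4192 and 4917 counts in a library. Shared exon bases made up at most 3.40% of any other member (Irf1, with Gm17334, at most 2 counts in a library).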

How the data were processed

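RNA was extracted from 4 flash-frozen tumours, libraries were made with a stranded mRNA kit, and each was sequenced on 2 lanes, per the labels' protocols. The deposited values are raw gene counts, made with STAR, SAMtools and HTSeq on mm10 per the submitters' processing notes; the tools' versions, the annotation and the strand setting are not stated there. All 173728 values were equal in the series table and the tables per sample. GENCODE M21 named 42548 of 43432 genes and left 884 unnamed, which took at most 0.100% of a library's counts.

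The test used edgeR 4.0.16 under R 4.3.3 (filterByExpr, TMM factors from 0.976 to 1.02, quasi-likelihood F test with the group as its only term, Benjamini-Hochberg adjustment over 13823 genes, threshold 0.05). SE is the log2 fold change divided by the square root of F, and 95% intervals use the t distribution at the moderated degrees of freedom. The test was tested on simulated data. CPM uses the adjusted library sizes, and per kb the merged exon length. The alternatives were DESeq2 1.42.0, limma-voom (limma 3.58.1), 3 scalings, 2 filters, robust dispersions, a block, another library size and leaving out each library; the transcript length was added after the data were seen.

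The members and the 16 other lists (242 genes) were chosen with earlier results of these data known. Genes named are the members, 12 fixed genes, up to 3 tested members of lowest p of a list, and near profiles of Irf1, Irf5, Irf7 and Irf8; those named otherwise, to show a level or a count, were chosen after their values were seen. Of the list genes, Gbp5 was not analysed here, and some results are not reported here. For lists not described by single genes, the median log2 fold change was 0.30 for T and NK cells, 0.12 for B and plasma cells, -0.14 for dendritic cells, 0.02 for neuroblastoma, -0.39 for endothelium, -0.58 for fibroblasts and -0.09 for mitochondrially encoded genes.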

Additional observations from a re-analysis of the deposited data

How the results depend on the processing

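None of the members with an adjusted p passed the threshold under any of the 14 alternatives, and the lowest adjusted p was 0.192 (Irf7 without sEV replicate 4). Of 111 member values under alternatives, 104 kept their sign and 7 reversed, each without 1 library: Irf1 without dinutuximab replicate 4 (-0.0384), Irf2 and Irf3 without sEV replicate 3 (0.20 and -0.0126), Irf4 without dinutuximab replicate 3 (-0.25) and without sEV replicate 4 (-0.35), and Irf8 without dinutuximab replicate 4 (0.21) and without sEV replicate 3 (0.0170). Leaving out 1 library, the values ranged from -0.0384 to 0.161 for Irf1, -0.422 to 0.200 for Irf2, -0.0126 to 0.104 for Irf3, -0.347 to 0.686 for Irf4, 0.150 to 0.281 for Irf5, 0.0351 to 1.51 for Irf7, -0.464 to 0.213 for Irf8 and 0.127 to 0.295 for Irf9. Irf4 was not tested with a filter of 1 CPM in 2 libraries and got no adjusted p from DESeq2. Over all genes the count of calls was 0 in the analysis reported, 55 with DESeq2 (17 higher, 38 lower), 262 without the low-count filter (107 and 155), and from 0 to 316 leaving out 1 library (132 without sEV replicate 3, 316 without sEV replicate 4); the cause was not tested. In these fits a group with a single library borrows its spread from the group with a pair. Without the low-count filter, without sEV replicate 3 and without sEV replicate 4, edgeR's prior degrees of freedom were infinite. Each gene then took its spread from the trend over genes. The prior degrees of freedom were 6.48 in the analysis reported. With the tumour number as a replicate block 67 genes were called (21 higher, 46 lower) and no member; Irf7 had 0.73 (adjusted p = 0.412). Same-numbered tumours share only a number, and their deviations from the group means correlated at 0.066 over 13823 genes. The difference between macrophage-linked and inducible members (-0.37) was 0.0155 with summed levels and ranged from -0.97 to 0.23 leaving out 1 library. Scaling and length cancel in it by construction. Depth limits Irf4, at 12 to 28 counts, and the interferon genes, at up to 10.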
